A study of Oncorhynchus mykiss with 9 samples.

Results

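Gene expression in the liver of rainbow trout (Oncorhynchus mykiss) was compared between fish kept under oxygen shortage and control fish, with both oxygen treatments pooled. All 9 RNA-sequencing libraries entered: 3 labelled control, 3 labelled moderate hypoxia and 3 labelled acute hypoxia, all made from total RNA of liver tissue of fish labelled wild-type. Both treatments share the same 3 controls, and fish returned to normal oxygen were not analysed here. The 6 hypoxia libraries were set against the 3 controls across the 13803 of 42127 genes whose FPKM averaged 1 or more across the 9 libraries. A gene of low level can pass this filter only through the group where it is high. The series' own description mentions 12 h, and its wording leaves unclear whether that duration holds for moderate hypoxia as well as acute. Oxygen levels are not given in the sources used here. No label states that replicate libraries came from separate fish, so p-values measure only the spread between these libraries. The subject is the response common to both treatments: a gene for which every hypoxia library lay on the same side of every control.

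Values are FPKM, fragments per length of transcript and per depth of the library, divided by a scaling factor per library (0.946 to 1.01 in control, 1.07 to 1.17 in moderate and 0.925 to 0.949 in acute hypoxia). They are called scaled FPKM below. Read totals are unknown, so no counting interval can be given. Differences are on the scale of log2(scaled FPKM + 0.5), which understates the fold of genes near 0.5 FPKM or lower, and the pooled difference is the mean of the moderate and the acute difference from control. Liver markers were abundant: the 7 matched hepatocyte genes, for transferrin, transthyretin, fibrinogen and alpha-1-antitrypsin, summed to between 14520 and 21350 scaled FPKM in every library. In bulk tissue, fewer cells of a type and less RNA per cell cannot be told apart.

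Animals sense oxygen through the hypoxia-inducible factor, HIF. Its alpha subunit is made constantly and, while oxygen lasts, is tagged for destruction by prolyl hydroxylases (the EGLN enzymes) and silenced by an asparaginyl hydroxylase, the factor inhibiting HIF. When oxygen falls, HIF switches on genes for red cell formation, vessel growth and glycolysis. Genes of some, not all, of its own hydroxylases are among its known targets. The liver answers such stress more widely as well, because it makes glucose, lipoproteins and plasma proteins, all at a cost in ATP. Salmonids carry many genes in near-identical copies, and how reads were shared between copies is not given in the sources used here, so values of single copies are uncertain.

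In pooled hypoxia 2 of 10 heme breakdown genes (both called heme oxygenase copies), 5 of 9 HIF hydroxylase genes and 12 of 28 glucocorticoid-responsive genes rose. Falls included 19 of 35 genes of cholesterol synthesis, 7 of 18 of DNA replication, 33 of 84 of ribosome biogenesis and 19 of 86 of the proteasome. Of 13803 genes 2212 passed limma's test at an adjusted p under 0.05, which is 16.0% of those tested. They were 1178 higher genes (8.53%) and 1034 lower genes (7.49%), with a median absolute log2 difference of 0.46 among them. Of the higher genes 72 exceeded 1 on the log2 scale, and of the lower genes 50 lay below -1. Without rescaling of the deposited FPKM the split moved, from 53.3% of calls higher to 69.4% (659 lower).

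A pooled mean can be carried by one treatment, so each gene was also read library by library. Of the 2212 genes past the pooled test, 1341 (60.6%) had all 6 hypoxia libraries on one side of all 3 controls, 707 above and 634 below. Among all genes tested, called or not, 13.2% were so placed. Counts of called list members on one side of the controls, given below, are to be read against the 60.6%. In the remaining 871 called genes at least 1 hypoxia library overlapped the controls. Acute and moderate hypoxia themselves differed for 3271 genes (23.7% of those tested), among them 999 of the 2212, with 448 higher and 551 lower in acute hypoxia. For 985 of the 1341 separated genes the treatments did not pass that test, and for 356 they did. A missed threshold does not show that the treatments act alike, so 95% intervals of the acute minus moderate difference are given below beside many of the genes that did not pass it.

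**Figure D1:**
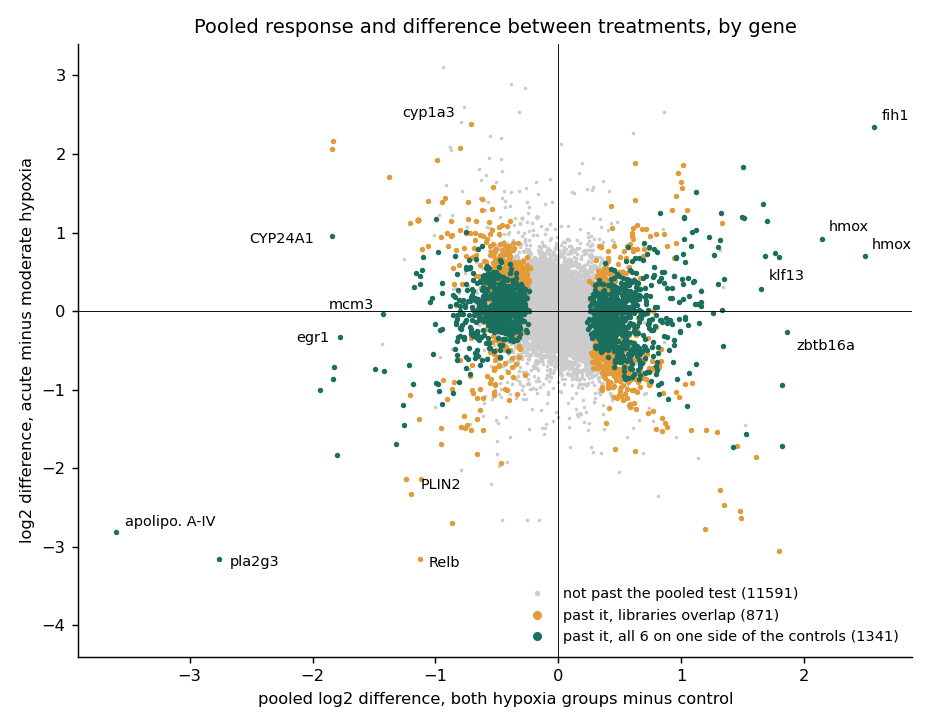
Each point is 1 of the 13803 genes tested, placed by its pooled log2 difference from control (horizontal axis) and by the log2 difference of acute minus moderate hypoxia (vertical axis). The 1341 genes with all 6 hypoxia libraries on one side of the controls are green, the other 871 called genes orange and genes not past the pooled test grey; zbtb16a, klf13 and mcm3 lie near the horizontal line of equal treatments, and fih1, pla2g3, Relb and cyp1a3 far from it.

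The number of calls fell more with a control left out than with a hypoxia library left out. It was 880 without control replicate 1, 1126 without control replicate 2 and 1444 without control replicate 3, against 1721 to 2071 with any 1 hypoxia library left out. A control is 1 of 3 libraries on its side of the comparison and a hypoxia library 1 of 6. Leaving out a control thus removes a larger part of its side, and how much of the lower counts this accounts for was not tested. A fit that treats the 6 hypoxia libraries as 1 group counts the difference between treatments as spread. It called 313 genes, 165 higher and 148 lower, all of them among the 2212 and all with the 6 hypoxia libraries on one side of the controls.

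**Figure D2:**
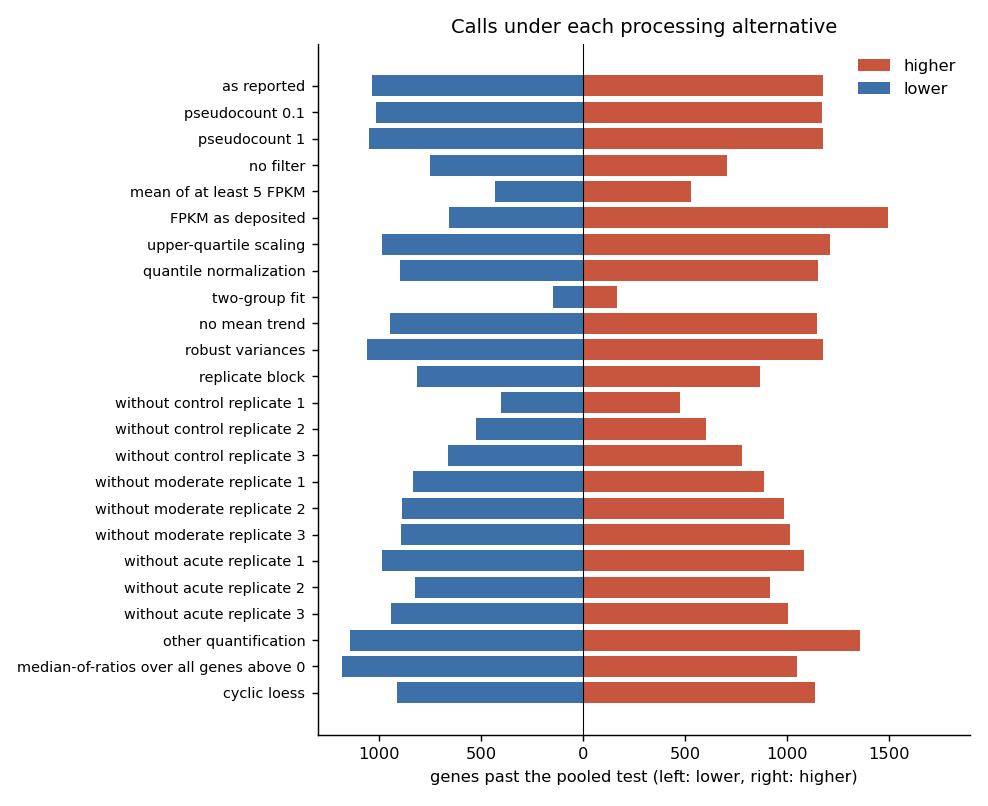
Bars give the number of genes past the pooled test, higher genes to the right and lower genes to the left, as reported (top, 1178 and 1034) and under each of 23 processing alternatives. The shortest bars are those of the fit with all 6 hypoxia libraries as 1 group (165 and 148), and leaving out control replicate 1 gave 476 and 404.

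The genes that rose most in both treatments were led by the heme oxygenases, whose enzyme opens the heme ring and releases iron, biliverdin and carbon monoxide. The copy hmox (ncbi_110485518) stood at 7.07, 7.69 and 8.33 scaled FPKM in control, 31.0, 43.8 and 33.2 in moderate and 69.6, 61.1 and 46.4 in acute hypoxia. Every hypoxia library lay above every control, and the acute libraries lay above the moderate ones. The pooled log2 difference was 2.49 ± 0.14 (SE, adjusted p = 9.89e-06), a 6.17-fold ratio of means. The second copy, hmox (ncbi_118936555), rose by 2.14 ± 0.15, with 1.68 in moderate and 2.60 in acute hypoxia.

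The transcriptional repressor zbtb16a (ncbi_110537608), a glucocorticoid-induced gene in mammals, rose in both treatments. It stood at 0.789, 0.935 and 0.857 scaled FPKM in control, 4.96, 5.00 and 4.73 in moderate and 3.37, 4.56 and 4.14 in acute hypoxia. The log2 difference was 1.86 ± 0.10 (adjusted p = 6.73e-06), and acute minus moderate was -0.26 (95% interval -0.51 to -0.01, adjusted p = 0.119). The zinc finger factor klf13 (ncbi_110512113) rose from 1.15 ± 0.0213 (SD, n = 3) to 4.78 ± 1.01 scaled FPKM (SD, n = 6), with log2 differences of 1.51 and 1.79 in moderate and acute hypoxia (acute minus moderate 0.28, 95% interval -0.11 to 0.67). The kinase gene sbk1 (ncbi_110486618) rose by 1.33 and 1.34 (0.01, -0.35 to 0.37), and the nucleotidase gene nt5c2l1 (ncbi_110523681), whose enzyme removes phosphate from purine nucleotides, by 1.14 and 1.55 (0.41, 0.08 to 0.74). Means of sbk1 and nt5c2l1 in control were 0.891 and 0.851 scaled FPKM, so both, like zbtb16a, passed the filter through hypoxia.

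Other leading rises were larger in one treatment. The factor tfcp2l1 (ncbi_110501799) rose by 1.39 in moderate and 2.13 in acute hypoxia. The ubiquitin ligase gene TRAF7 (ncbi_110511701) had the reverse order, at 2.29 and 1.35, and its controls were spread, at 17.4, 18.9 and 7.14 scaled FPKM. A pair of genes named for the NLR family of intracellular immune receptors also rose: Nlrc3 (ncbi_118937844) by 1.27 and 1.25 (acute minus moderate -0.02, 95% interval -0.48 to 0.44), and a gene annotated as NACHT, LRR and PYD domains-containing protein 12 (ncbi_110511505) by 1.13 and 1.19. This family has many similar copies in fish, so the identity of the copy is uncertain.

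The deepest common fall was seen for apolipoprotein A-IV (ncbi_110523359), which travels on secreted lipoproteins. It stood at 51.0, 60.5 and 39.2 scaled FPKM in control, 14.2, 10.4 and 7.69 in moderate and 1.76, 0.721 and 0.876 in acute hypoxia. The groups formed 3 steps without overlap, and the pooled log2 difference was -3.60 ± 0.23 (adjusted p = 2.03e-05). The secreted phospholipase gene pla2g3 (ncbi_110536804) stepped down likewise, by 1.18 in moderate and 4.34 in acute hypoxia on the log2 scale.

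Of 17 immediate-early genes 7 fell (41.2%, against 7.49% of all genes tested) and 1 rose (5.88%, against 8.53%). Without control replicate 1 the falls were 4. All 3 tested copies of egr1, an immediate-early transcription factor gene that growth signals switch on within minutes, fell. The copy ncbi_110537802 stood at 7.82, 6.23 and 8.87 scaled FPKM in control, 2.40, 2.23 and 1.80 in moderate and 1.80, 1.34 and 1.67 in acute hypoxia, so that the lowest control was more than any hypoxia library. Its log2 difference was -1.78 ± 0.13 (adjusted p = 4.82e-05), and those of the copies ncbi_110488587 and ncbi_110533389 were -1.83 ± 0.18 and -1.94 ± 0.16. Acute minus moderate was -0.33 for ncbi_110537802 (95% interval -0.65 to -0.003). The vitamin D catabolic enzyme gene CYP24A1 (ncbi_100136661) fell more in moderate hypoxia, from 12.1 ± 0.890 to 1.82 to 2.27 scaled FPKM there and to 4.11 to 4.88 in acute hypoxia. The gene zgc:73324 (ncbi_110486266), annotated as the coenzyme Q-binding protein COQ10, fell by 1.41 and 2.27.

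In smaller falls the treatments did not pass the test against each other. The spliceosome core gene snrpg (ncbi_110492664) fell by 1.30 and 0.95 in moderate and acute hypoxia (acute minus moderate 0.35, 95% interval -0.09 to 0.78), and pfdn6 (ncbi_100305141), a subunit of the prefoldin chaperone that hands actin and tubulin to their folding machine, by 1.11 and 0.94 (0.16, 95% interval -0.21 to 0.54). Of the 24 leading genes described here, 23 kept their calls under every alternative other than the fit with all hypoxia libraries as 1 group, and 21 kept them there (fih1, pla2g3 and PHGDH did not). The exception was PHGDH (ncbi_110520091), the entry enzyme of serine synthesis, which fell from 13.5, 8.72 and 20.5 scaled FPKM in control to 1.65 to 7.87 in hypoxia. Its call was lost without control replicate 1 or control replicate 3, with an adjusted p of up to 0.0613.

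**Figure D3:**
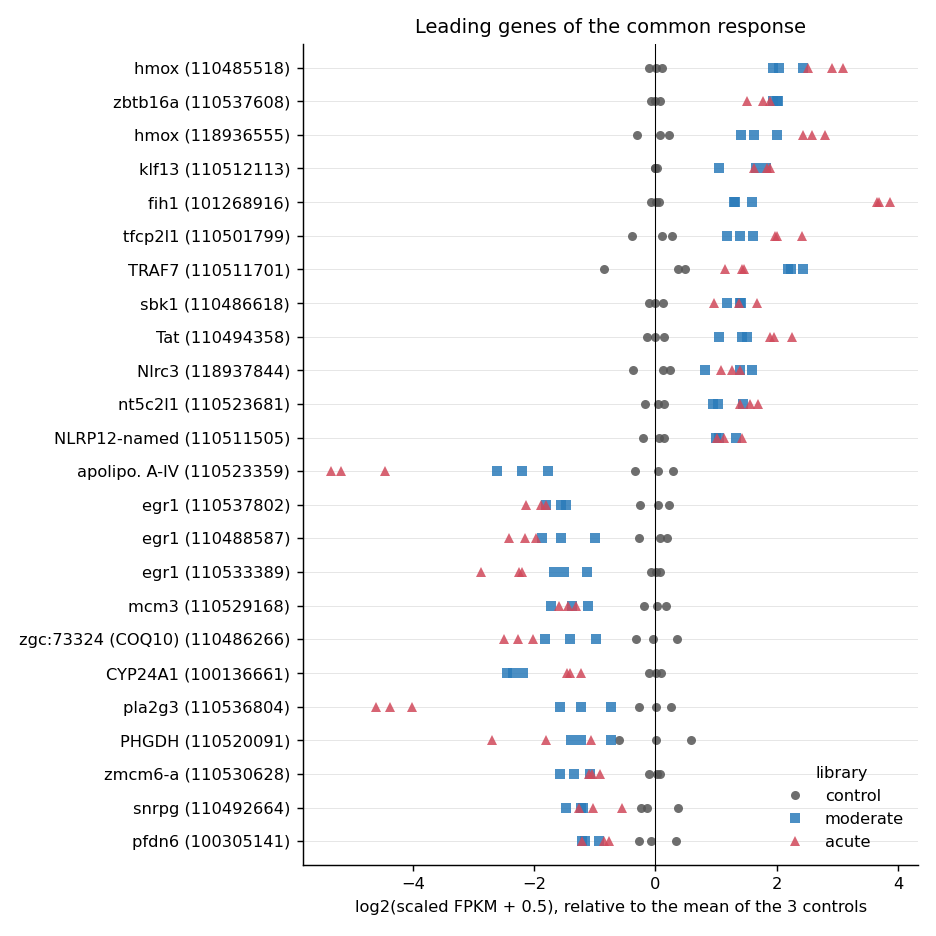
Values of the 12 highest and 12 lowest genes of the common response, by the smaller of the 2 treatments' differences, as log2(scaled FPKM + 0.5) relative to the mean of the 3 controls. Each mark is 1 library (grey circles control, blue squares moderate, red triangles acute hypoxia); the genes were chosen so that the 6 hypoxia marks lie on one side of the 3 control marks, and fih1, pla2g3 and apolipoprotein A-IV separate the treatments most.

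In the oxygen-sensing pathway, genes of the enzymes that restrain HIF rose, while 1 gene of the HIF subunits was called. Of 10 tested genes for HIF subunits and their ARNT partners 1 rose (10%, near the 8.53% of all genes tested) and none fell. The gene called was arnt2 (ncbi_110506172) at 0.41 ± 0.12, with 0.72 in moderate and 0.10 in acute hypoxia. That call was lost when any of 6 libraries (control 1 or 2, moderate 1 or 2, acute 2 or 3) was left out, at an adjusted p of up to 0.153. Of 9 genes listed as HIF hydroxylases, with the von Hippel-Lindau ubiquitin ligase gene counted among them, 5 rose (55.6%, against 8.53% of all genes tested) and none fell. In 4 of the 5 all 6 hypoxia libraries lay above the controls (60.6% of all called genes were on one side). Of 12 genes matched, 9 passed the filter. Both Egln3 copies passed it only through acute hypoxia. Their means were 0.25 and 0.54 scaled FPKM in control, 0.91 and 0.68 in moderate and 2.72 and 3.18 in acute hypoxia. EGLN2 (ncbi_110507058) passed it through hypoxia, with means of 0.915 in control, 1.73 in moderate and 3.47 in acute hypoxia. The rise thus helped to decide which genes were tested, which can raise the share of 55.6%.

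The largest of these rises was that of fih1 (ncbi_101268916), the asparaginyl hydroxylase. It stood at 2.17, 2.0 and 2.26 scaled FPKM in control, 7.44, 6.0 and 6.03 in moderate and 33.4, 38.2 and 32.9 in acute hypoxia, without overlap between any 2 groups (pooled log2 difference 2.57 ± 0.09, adjusted p = 4.40e-07). The prolyl hydroxylase gene Egln3 (ncbi_110505778) was at 0.292, 0.211 and 0.253 in control, 0.908, 1.11 and 0.703 in moderate and 2.82, 2.42 and 2.92 in acute hypoxia. The same 3 steps appeared in EGLN2 (ncbi_110507058), at log2 differences of 0.66 and 1.5, and in egln1 (ncbi_101268917), at 0.59 and 1.59. The other Egln3 copy (ncbi_110497687) was called at 1.0 ± 0.13, but its moderate libraries, at 0.522, 0.607 and 0.913 scaled FPKM, overlapped the controls, at 0.436 to 0.624. The gene named hif1an (ncbi_110502616), a further one for the factor inhibiting HIF, was not called, at -0.08, and neither were Egln1 (ncbi_110486061), at 0.34, egln2 (ncbi_110503496), at -0.21, and vhl (ncbi_110494307), at 0.05.

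HIF targets moved both ways. Of 95 genes matched 42 passed the filter, and 9 of these rose and 6 fell, which is 21.4% and 14.3% against 8.53% and 7.49% of all genes tested. The median log2 difference of the 42 was 0.09, and 7 of the rises and 5 of the falls had all 6 hypoxia libraries beyond the controls (60.6% over all called genes). The gene epo (ncbi_110531655), which encodes erythropoietin, the hormone that drives red cell formation, stood at 0.370, 0.397 and 0.400 scaled FPKM in control, 1.17, 1.32 and 1.04 in moderate and 2.70, 3.59 and 3.75 in acute hypoxia, again in 3 steps without overlap (1.51 ± 0.11, adjusted p = 5.52e-05). The ankyrin repeat gene ankrd37 (ncbi_110534293) rose by 0.61 and 1.64, and both called copies of the oxygen-dependent hydroxylase gene jmjd6 rose, by 0.61 and 1.30 (ncbi_110486581) and by 0.48 and 0.89 (ncbi_110538541). Averages of epo were 0.389 scaled FPKM in control, 1.175 in moderate and 3.344 in acute hypoxia, so it passed the filter through hypoxia, mostly acute. Those of ankrd37 were 0.315, 0.730 and 2.03, so it passed only through acute hypoxia.

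The collagen prolyl hydroxylase gene P4HA1 (ncbi_110499022) was the target with the closest treatments. Its scaled FPKM was 2.19, 2.15 and 2.40 in control, 3.91, 3.79 and 3.80 in moderate and 4.30, 3.73 and 3.49 in acute hypoxia, and both log2 differences were 0.66 (95% interval of acute minus moderate -0.22 to 0.22). The mitophagy receptor gene BNIP3L (ncbi_110509873) rose by 0.24 and 0.57. BNIP3 (ncbi_110531588) was called higher at 0.34 and its copy bnip3 (ncbi_100301704) called lower at -0.26, and neither call survived the loss of any 1 control. The mean of BNIP3 (ncbi_110531588) in control was 0.837 scaled FPKM, so it passed the filter through hypoxia. The vessel growth factor gene vegfaa (ncbi_110529696), at 0.15 and 0.91, overlapped the controls in moderate hypoxia.

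Genes on the target list that fell in both treatments included ndrg1a (ncbi_110488041), a stress-response gene, at 36.2, 36.7 and 31.8 scaled FPKM in control, 23.4, 20.9 and 24.3 in moderate and 23.3, 20.5 and 18.6 in acute hypoxia. Every hypoxia library lay below every control while the treatments overlapped each other, and the log2 difference was -0.67 ± 0.09 (adjusted p = 0.00184; acute minus moderate -0.14, 95% interval -0.38 to 0.10). Higd1a (ncbi_110530494), which acts on respiratory complexes of mitochondria, fell by 0.80 and 0.72 (acute minus moderate 0.08, 95% interval -0.21 to 0.37), and the circadian repressor gene Bhlhe40 (ncbi_110528181) by 0.63 and 0.34 (0.28, 95% interval 0.04 to 0.52). The transferrin receptor gene tfr1a (ncbi_110509090), which admits iron to cells, fell by 0.75 and 0.91. TFRC (ncbi_100653457), the other receptor copy, was called higher at 0.51, with 0.92 in moderate and 0.10 in acute hypoxia, and lost that call without control replicate 1, 2 or 3 or moderate replicate 1 (adjusted p up to 0.0887). The HIF co-regulator gene cited2 (ncbi_110529621), at -0.53 and 0.01, lost its call in 8 of 9 fits with a library left out.

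Beside the heme oxygenases, 1 further gene of heme breakdown was called. BLVRB (ncbi_110503591), a reductase of biliverdin and flavin, fell from 50.6, 48.3 and 44.9 scaled FPKM in control to 28.0, 35.1 and 30.7 in moderate and 38.4, 30.4 and 36.0 in acute hypoxia. None of 22 tested red cell markers (globins, alas2 and band 3 genes) was called, and their sum, 2494 to 2731 scaled FPKM in control and 1576 to 2823 in hypoxia, overlapped between the groups. Without acute replicate 1 or moderate replicate 3, 4 and 3 of them were called lower.

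**Figure D4:**
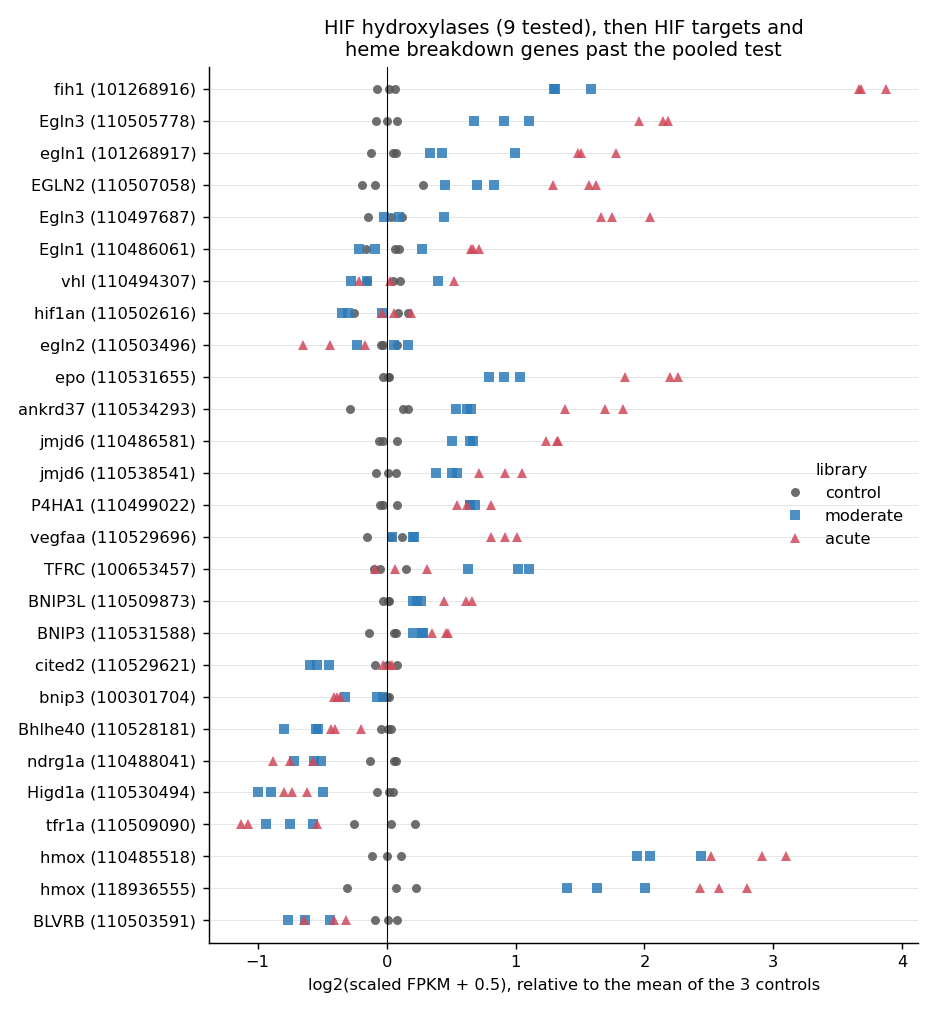
The 9 tested genes of the HIF hydroxylase list, the 15 called HIF targets and the 3 called heme breakdown genes, each library shown as log2(scaled FPKM + 0.5) relative to the mean of the 3 controls (grey circles control, blue squares moderate, red triangles acute hypoxia). Most rising genes show moderate hypoxia between control and acute hypoxia, while P4HA1, ndrg1a, Higd1a and tfr1a show both treatments side by side.

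In sugar metabolism the pooled calls of glycolysis came mainly from acute hypoxia. Of 30 glycolysis genes 8 rose (26.7%, against 8.53% of all genes tested) and 1 fell (3.33%, against 7.49%). Of the 8 rises 2 had all 6 hypoxia libraries above the controls (60.6% over all called genes), and 19 of the 30 were higher in acute than in moderate hypoxia. The list's median log2 difference was -0.05 in moderate and 0.39 in acute hypoxia. The triosephosphate isomerase gene tpi1b (ncbi_110489325) stood at 24.4, 24.3 and 24.9 scaled FPKM in control, 27.8, 27.6 and 29.2 in moderate and 64.1, 66.5 and 73.2 in acute hypoxia, so moderate hypoxia lay just above control and acute hypoxia far above both. The phosphoglycerate mutase gene pgam1b (ncbi_110493407) rose by 1.01, with 0.22 and 1.79 in the 2 treatments. The 8 calls became 4 without control replicate 1, 5 without control replicate 3 and 5 without moderate replicate 2.

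Both called copies of phka2, the regulatory subunit of the liver's phosphorylase kinase, which turns on glycogen breakdown, rose. Their means in control were 0.763 and 0.765 scaled FPKM, so both passed the filter through hypoxia. The copy ncbi_110514320 stood at 0.731, 0.686 and 0.873 scaled FPKM in control, 2.47, 2.33 and 1.92 in moderate and 1.51, 1.79 and 2.12 in acute hypoxia. Every hypoxia library lay above every control, and the treatments overlapped each other (log2 difference 0.99 ± 0.11, adjusted p = 0.000805; acute minus moderate -0.25, 95% interval -0.54 to 0.04), and the copy ncbi_110496992 rose by 0.77 ± 0.11. The glycogen-targeting phosphatase subunit gene ppp1r3cb (ncbi_110491403) rose by 0.43 and 1.61. Of 25 glycogen genes 3 rose and 3 fell (12.0% each, against 8.53% and 7.49% of all genes), and the 3 falls were lost without any 1 of the controls. Of 13 gluconeogenesis genes 1 rose and 2 fell (7.69% and 15.4%, against 8.53% and 7.49%). The one that rose was pck1 (ncbi_110493880), the gate enzyme of the pathway, at 0.72, with 0.19 in moderate and 1.24 in acute hypoxia, a call lost in 7 of 9 fits with a library left out (adjusted p up to 0.143). The mean of pck1 in control was 0.808 scaled FPKM, so it passed the filter through hypoxia. The enzyme gene FBP1 (ncbi_110537035) fell from 58.7, 63.2 and 54.2 scaled FPKM to 41.0 to 49.1 over the 6 hypoxia libraries, and G6PC (ncbi_110499065), which frees glucose for export, fell by 0.30 and 0.82 with 1 overlapping library.

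Of 58 genes of the citric acid cycle and pyruvate dehydrogenase 6 rose (10.3%, near the 8.53% of all genes) and none fell. The succinate dehydrogenase gene sdha (ncbi_110520756) rose from 1.15, 0.909 and 1.01 scaled FPKM in control to 1.78, 1.84 and 2.04 in moderate and 1.46, 1.33 and 1.21 in acute hypoxia, a call lost without control replicate 2. Of 101 nuclear genes of the respiratory chain and ATP synthase none rose and 15 fell (14.9%, against 7.49%), 6 of them with all 6 hypoxia libraries below the controls (60.6% over all called genes). The median log2 difference of the 101 genes was -0.25 in moderate and -0.05 in acute hypoxia. Of them 25 were higher in acute than in moderate hypoxia and none lower. The complex I gene NDUFS6 (ncbi_110496462) fell by 0.72 ± 0.08, with 0.997 in moderate and 0.44 in acute hypoxia. NDUFB4 (ncbi_110489575), of the same complex, fell by 0.82 ± 0.16, with 0.96 in moderate and 0.68 in acute hypoxia. On the deposited scale and after quantile normalization 9 genes fell. Without control replicate 1 or 2 the citric acid cycle calls were 2 and 1 and the respiratory chain calls 5 and 5.

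Of 35 cholesterol synthesis genes 1 rose, a call lost without control replicate 1 or 2, and 19 fell (54.3%, against 7.49% of all genes tested). Of the 19 falls 10 had every hypoxia library below every control, where 60.6% of all called genes were on one side. The median log2 difference was -0.61, with -0.35 in moderate and -0.84 in acute hypoxia, and 14 members were lower in acute than in moderate hypoxia. The isomerase gene idi1 (ncbi_100301790), which makes the activated isoprene unit, stood at 22.8, 20.1 and 21.9 scaled FPKM in control, 15.1, 18.7 and 12.9 in moderate and 4.52, 2.66 and 7.03 in acute hypoxia, so all groups were apart. The sterol carrier gene stard4 (ncbi_110523470) fell from 75.7 ± 1.91 (SD, n = 3) to 43.2 ± 7.76 scaled FPKM (SD, n = 6), by 0.64 and 1.01 on the log2 scale. The late-step enzyme gene hsd17b7 (ncbi_110530031) fell by 0.51 and 1.44. The 19 falls numbered 7 without control replicate 1 and 10 without control replicate 3.

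Of 41 genes of fatty acid oxidation 15 fell (36.6%, against 7.49% of all genes tested) and 4 rose (9.76%, near the 8.53% of all genes). A member that rose was PPARA (ncbi_110521393), the nuclear receptor that drives the pathway in mammals, from 2.18, 2.86 and 2.21 scaled FPKM in control to 5.62, 6.21 and 5.13 in moderate and 6.50, 4.91 and 4.41 in acute hypoxia. Every hypoxia library lay above every control, and the treatments overlapped each other (log2 difference 1.03 ± 0.13, adjusted p = 0.00110; acute minus moderate -0.11, 95% interval -0.43 to 0.22). The dehydrogenase gene ACADL (ncbi_110527282) fell by 0.93 and 0.58 (acute minus moderate 0.35, 95% interval 0.01 to 0.69). The carnitine carrier gene SLC25A20 (ncbi_110532875) rose by 0.97 in moderate hypoxia and stood at 0.15 in acute hypoxia. The 15 falls depended on single libraries: there were 4, 6 and 7 without control replicate 1, 2 and 3, 9 without moderate replicate 1 and 9 without acute replicate 2. The 4 rises became 2 without control replicate 1 or 3. On the deposited scale 7 members fell.

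Apolipoprotein and lipid droplet genes gave 11 falls among 38 members (28.9%, against 7.49% of all genes tested) and no rise. Of the 11 falls 7 had every hypoxia library below the controls, near the 60.6% of all called genes on one side. The summed level of the 38 did not fall with them. It was 82060 to 91810 scaled FPKM in control and 76470 to 95300 in hypoxia, so the groups overlapped, and the genes named here make up a small part of it. Beside apolipoprotein A-IV, an apolipoprotein A-I gene (ncbi_110510190), the main protein of high-density lipoprotein, fell from 391, 428 and 362 scaled FPKM in control to 196, 210 and 240 in moderate and 130, 118 and 152 in acute hypoxia. The groups were again 3 separate steps (-1.22 ± 0.10, adjusted p = 0.000118). The related gene zgc:162608 (ncbi_110507365) fell by 0.66 and 1.86. PLIN2 (ncbi_110531797), the coat protein of lipid droplets, was called at -1.20, but its moderate libraries, at 20.2, 20.2 and 20.4, lay within the controls, at 14.2 to 29.7.

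Of 80 genes of bile acid and xenobiotic metabolism 6 rose and 13 fell (7.50% and 16.2%, against 8.53% and 7.49% of all genes tested). The bile acid hydroxylase gene CYP8B1 (ncbi_110530492) rose by 0.46 and 0.67, and Nr0b2 (ncbi_110496393), the repressor of bile acid synthesis known as SHP, fell by 1.20 and 0.49. Without control replicate 1, 2 and 3 the rises were 3 each time, and without control replicate 1 or 2 the falls were 6 and 7.

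Of 28 genes that glucocorticoids induce or that carry their signal in mammals 12 rose (42.9%, against 8.53%) and 1 fell. In 8 of the 12 every hypoxia library lay above every control, near the 60.6% of all called genes on one side. The number of rises was never less than 8 with a library left out. Of 41 genes matched 28 passed the filter. Means of zbtb16a and fkbp5 (ncbi_110528325) in control were 0.860 and 0.717 scaled FPKM, so both passed it through hypoxia. Their rise thus helped to decide which genes were tested, which can raise the share of 42.9%. FKBP5 (ncbi_110494097), a co-chaperone of the glucocorticoid receptor, stood at 5.58, 5.12 and 5.83 scaled FPKM in control, 11.6, 13.8 and 11.5 in moderate and 15.0, 13.3 and 11.3 in acute hypoxia. Its treatments overlapped each other and not the controls (log2 difference 1.14 ± 0.10, adjusted p = 0.000179; acute minus moderate 0.09, 95% interval -0.17 to 0.36). Its copy fkbp5 (ncbi_110528325) rose by 1.12 and 2.27. The tyrosine aminotransferase genes Tat (ncbi_110494358) and Tat (ncbi_118936285), a classic glucocorticoid target in mammalian liver, rose by 1.68 ± 0.12 and 0.65 ± 0.11. The member that fell was cebpb (ncbi_100136165), at -0.28, a call lost without control replicate 1 or 2.

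Of 45 genes of insulin, FoxO and growth factor signalling 10 rose (22.2%, against 8.53% of all genes tested) and none fell. The transcription factor gene foxo1a (ncbi_110534227), which insulin restrains, rose from 3.20, 2.53 and 3.42 scaled FPKM in control to 5.99, 7.49 and 5.75 in moderate and 6.74, 8.04 and 7.36 in acute hypoxia. Its copy foxo1a (ncbi_110490984) rose mostly in moderate hypoxia, by 1.34 against 0.29. Foxo3 (ncbi_110529912) rose by 0.55 and 1.01, and pik3r1 (ncbi_110523476), the regulatory subunit of phosphoinositide 3-kinase, by 0.72 and 1.17. Without control replicate 1 the 10 rises were 6.

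Amino acid genes went 2 ways by list, with mostly rises among called breakdown genes and only falls among called genes of the amino acid stress response. Of 61 genes of amino acid breakdown 11 rose (18.0%, against 8.53% of all genes tested) and 5 fell. The share that fell was near the 7.49% of all genes. Of the 11 rises 6 and of the 5 falls 4 had all 6 hypoxia libraries beyond the controls (60.6% over all called genes). The median log2 difference of the 61 was -0.13 in moderate and 0.11 in acute hypoxia, and 28 were higher and 1 lower in acute than in moderate hypoxia. Their sum was 3422 to 3494 scaled FPKM in control, 3043 to 3310 in moderate and 3906 to 4159 in acute hypoxia. The transsulfuration enzyme gene cbs (ncbi_100136726) rose by 0.29 and 0.96. Of 14 genes that the stress factor ATF4 controls, atf4 copies included, 9 fell (64.3%, against 7.49%) and none rose. Of the 9 falls 4 had every hypoxia library below the controls, where 60.6% of all called genes were on one side. The serine synthesis gene psat1 (ncbi_110536504) stood at 1.74, 1.80 and 1.65 scaled FPKM in control, 0.958, 0.888 and 0.542 in moderate and 0.781, 0.627 and 0.828 in acute hypoxia, a difference of -0.80 and -0.84 in the treatments (acute minus moderate -0.05, 95% interval -0.36 to 0.27). Its mean in hypoxia was 0.771, so it passed the filter through control. The copy atf4 (ncbi_110486127) fell by 0.28 and 0.63 and asns (ncbi_110488144), asparagine synthetase, by 0.31 and 1.13. The 9 falls were 1 without control replicate 1 and 2 without control replicate 3, and neither atf4 nor asns kept its call in those fits. The 11 rises of amino acid breakdown were 6 and 7 without control replicate 1 or 2, and its 5 falls were 1 without control replicate 1 and 3 without moderate replicate 1.

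Of 51 genes of the unfolded protein response in the endoplasmic reticulum 6 rose and 9 fell (11.8% and 17.6%, against 8.53% and 7.49% of all genes). Both called copies of DNAJB9, a chaperone of that compartment, rose: ncbi_110490251 by 0.92 and 1.03 (acute minus moderate 0.11, 95% interval -0.23 to 0.45) and ncbi_110500224 by 0.82 and 0.71 (-0.10, -0.36 to 0.16). The stress sensor kinase gene eif2ak3 (ncbi_110504273), known as PERK, rose by 1.26 and 0.61. The 9 falls were 4 and 5 without control replicate 1 or 3.

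Of 18 tested genes of DNA replication and the cell cycle 7 fell (38.9%, against 7.49% of all genes tested), and the 1 that rose was cdkn1ba (ncbi_110490138), an inhibitor of cell division named here because it stood alone, at 0.83. The replication helicase gene mcm3 (ncbi_110529168) stood at 2.48, 2.07 and 2.83 scaled FPKM in control, 0.856, 0.387 and 0.628 in moderate and 0.687, 0.588 and 0.473 in acute hypoxia. Every control was more than any hypoxia library, and the treatments overlapped (-1.43 ± 0.15, adjusted p = 0.000381; acute minus moderate -0.04, 95% interval -0.41 to 0.33). Its partners mcm4 (ncbi_110530465), at -0.83 and -0.89, and mcm7 (ncbi_110489022), at -0.66 and -0.71, fell too, as did the thymidylate synthase gene tyms (ncbi_110489946), at -0.50 and -0.65. A further helicase gene, zmcm6-a (ncbi_110530628), is not among the 18 list genes and stood at -1.33 and -1.02 (acute minus moderate 0.31, 95% interval 0.02 to 0.61, adjusted p = 0.118). The 95% interval of acute minus moderate was -0.37 to 0.27 for mcm4, -0.34 to 0.24 for mcm7 and -0.38 to 0.07 for tyms. The levels of these replication genes are low, between 0.387 and 6.15 scaled FPKM. Means of mcm3, mcm4 and zmcm6-a in hypoxia were 0.603, 0.960 and 0.948, so these genes passed the filter through control. Of 58 list genes matched 18 passed it. The fall thus helped to decide which genes were tested, which can raise the share of 38.9%. The 7 falls were 4 without control replicate 2, and the rise of cdkn1ba was lost without control replicate 1 or 2.

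Of 84 ribosome biogenesis genes 33 fell (39.3%, against 7.49%) and 1 rose, ddx52 (ncbi_110510301) at 0.34, a call lost without control replicate 1 or 3. In 29 of the 33 every hypoxia library lay below every control (60.6% of all called genes were on one side). The snoRNP gene nhp2 (ncbi_110533406), whose product guides the chemical marking of ribosomal RNA, stood at 4.75, 4.95 and 4.51 scaled FPKM in control, 2.72, 2.75 and 2.40 in moderate and 2.92, 3.34 and 2.61 in acute hypoxia (acute minus moderate 0.14, 95% interval -0.09 to 0.38). The nucleolar gene ppan (ncbi_110485174) fell by 0.54 and 0.85. Both copies of DKC1, the pseudouridine synthase of the same particle as nhp2, were called lower but through moderate hypoxia: each fell there by 1.64 and stood at -0.20 (ncbi_110509933) and -0.25 (ncbi_110533950) in acute hypoxia, with overlap with the controls. The 33 falls were 17 without control replicate 1 and 18 without control replicate 2.

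Of 86 proteasome genes 19 fell (22.1%, against 7.49%) and none rose, and 15 of the 19 lay below the controls in every hypoxia library (60.6% over all called genes). The summed level of the 86 was 716.9 to 757 scaled FPKM in control and 612.4 to 667.8 in hypoxia. The catalytic subunit gene psmb6 (ncbi_100135883) fell by 0.40 in both treatments, Psmd4 (ncbi_110508390), a ubiquitin receptor, by 0.38 and 0.39, and PSMD12 (ncbi_110485989) by 0.54 and 0.60. The 95% interval of acute minus moderate was -0.20 to 0.19 for psmb6, -0.21 to 0.18 for Psmd4 and -0.34 to 0.21 for PSMD12. Of 52 autophagy and lysosome genes 7 rose (13.5%, against 8.53%) and none fell, all 7 with every hypoxia library above the controls (60.6% over all called genes). The starter kinase gene ulk1a (ncbi_110535949) rose from 3.68, 3.10 and 3.55 scaled FPKM in control to 5.30, 6.18 and 5.52 in moderate and 6.85, 5.29 and 5.22 in acute hypoxia (acute minus moderate 0.02, 95% interval -0.25 to 0.29). WIPI1 (ncbi_110499214), which marks the growing autophagosome, rose by 0.37 in both (95% interval of their difference -0.22 to 0.22), a call lost without control replicate 1 or 2. Without control replicate 1, 2 and 3 the proteasome falls were 7, 8 and 12 and the autophagy rises 1, 1 and 4, and on the deposited scale 11 proteasome genes fell.

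Oxygen-dependent demethylases, enzymes that use molecular oxygen to strip methyl groups from histones and nucleic acids, were higher where they were called. Of 38 genes 13 rose (34.2%, against 8.53% of all genes tested) and none fell, and 12 of the 13 had every hypoxia library above the controls (60.6% over all called genes). The list shares both jmjd6 copies with the HIF targets. KDM3B (ncbi_110504800) stood at 1.43, 1.64 and 1.14 scaled FPKM in control, 2.56, 2.34 and 2.19 in moderate and 2.32, 2.27 and 2.29 in acute hypoxia, close together in the treatments (0.58 ± 0.10, adjusted p = 0.00516; acute minus moderate -0.03, 95% interval -0.29 to 0.22). The 13 rises were 6 and 5 without control replicate 1 or 2 and 8 without moderate replicate 1.

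Of 34 clock genes 7 rose (20.6%, against 8.53% of all genes tested) and 3 fell (8.82%, near the 7.49% of all genes). The output factor gene HLF (ncbi_110508875) rose by 0.80 and 0.68 (acute minus moderate -0.12, 95% interval -0.47 to 0.24), and Per1 (ncbi_110509930), a core repressor of the clock, by 1.06 and 0.28. The 7 rises were 3 and 2 without control replicate 1 or 2, 4 without moderate replicate 1 and 4 without acute replicate 2.

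Of 39 genes of NF-kappa-B and inflammation 2 rose and 7 fell (5.13% and 17.9%, against 8.53% and 7.49%), of which 1 and 2 were on one side of the controls in every hypoxia library (60.6% over all called genes). The list's median log2 difference was 0.20 in moderate and -0.31 in acute hypoxia. Of the 39, 3 were higher and 19 lower in acute than in moderate hypoxia. TNFAIP2 (ncbi_110529330), a gene induced by tumour necrosis factor in mammals, fell from 9.33, 8.48 and 8.59 scaled FPKM in control to 5.03, 5.61 and 5.18 in moderate and 5.11, 5.58 and 3.71 in acute hypoxia. RELA (ncbi_110531834), a subunit of NF-kappa-B, rose by 0.88 and 0.38. Of 40 acute phase and antimicrobial genes 2 rose and 1 fell (5% and 2.5%, against 8.53% and 7.49% of all genes tested). In acute hypoxia 23 of the 40 were higher and 2 lower than in moderate hypoxia. Of the liver antimicrobial peptides, leap-2b (ncbi_100136189) fell, by 0.89 and 2.71, whereas leap2 (ncbi_100136188) rose by 0.61 and 1.11. The inflammation falls were 3 and 1 without control replicate 1 or 2, 4 without moderate replicate 3 and 4 without acute replicate 2. The 2 inflammation rises were 1 without control replicate 1 or 3 and 5 without acute replicate 1.

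Of 6 macrophage and 2 lymphocyte markers tested 1 each was called lower (16.7% and 50%, against 7.49% of all genes tested). Each of these shares rests on 1 gene, and the other macrophage and lymphocyte markers were not called. None of 3 granulocyte markers was called. The macrophage gene mpeg1.1 (ncbi_110525246) fell from 5.72, 7.40 and 5.69 scaled FPKM in control to 3.12 to 4.52 in hypoxia, and the 6 tested macrophage markers summed to 41.7 to 49.2 in control and 29.3 to 39.6 in hypoxia, without overlap. The B cell gene CD79A (ncbi_110537828) fell by 0.70 and 0.88, a call lost without control replicate 2, and both lymphocyte markers tested summed to 3.52 to 4.93 and 1.87 to 3.09. The endothelial receptor gene kdr (ncbi_110521673) rose by 0.44 and 0.42 (acute minus moderate -0.02, 95% interval -0.26 to 0.22), a call also lost without control replicate 2, while the other 4 endothelial markers were not called. No marker of granulocytes (3 tested), stellate cells and fibroblasts (11), bile duct (7), exocrine pancreas (8) or hepatocytes (7) was called, and the only muscle marker matched did not pass the filter. The part of these cells in the results for immune genes was not tested.

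**Figure D5:**
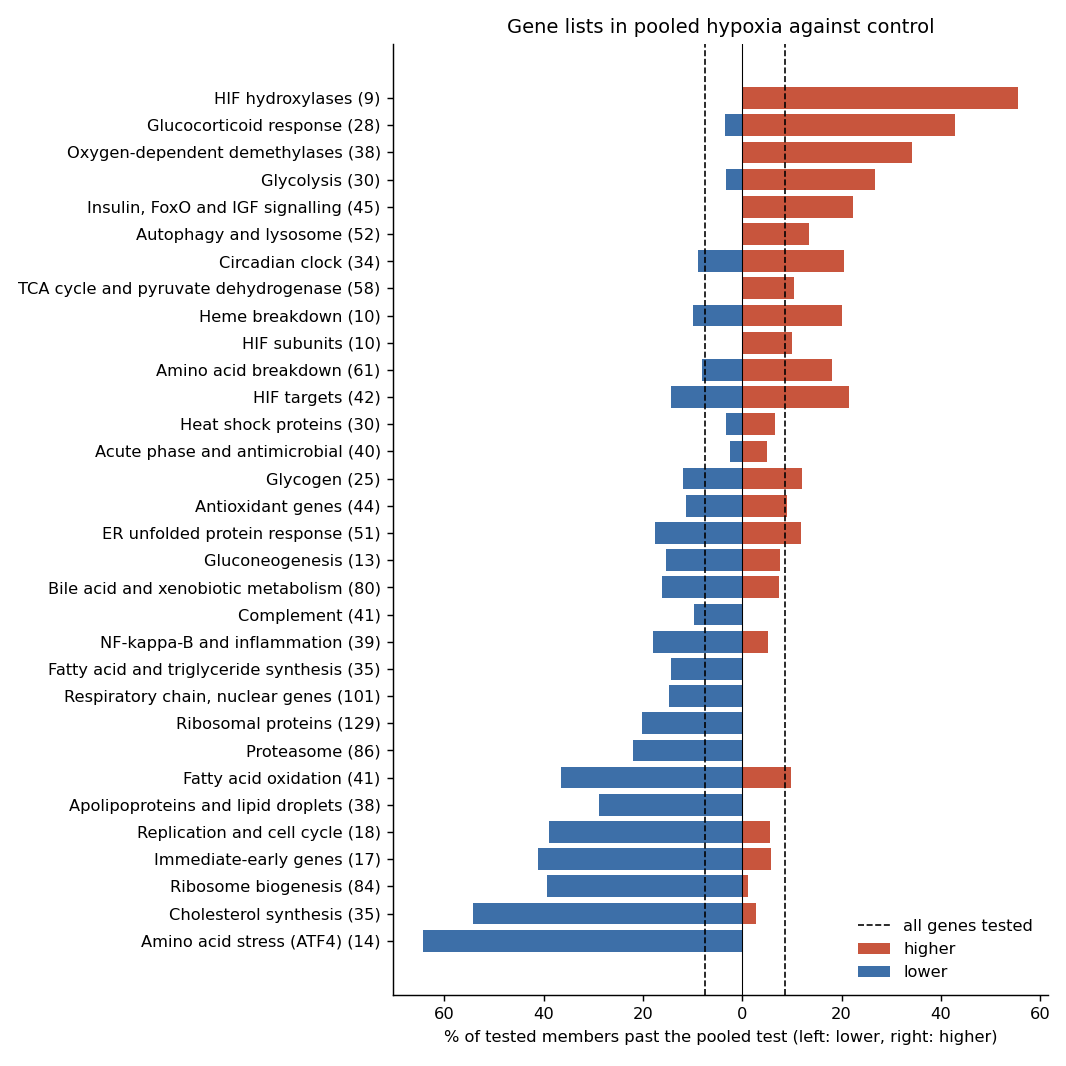
Share of each list's tested members (number in brackets) that passed the pooled test, higher members to the right and lower members to the left, with dashed lines at the shares of all genes tested (8.53% and 7.49%). HIF hydroxylases (55.6%, with both Egln3 copies past the filter only through acute hypoxia) and glucocorticoid-responsive genes (42.9%) stand out to the right, and ATF4-controlled genes (64.3%) and cholesterol synthesis (54.3%) to the left. EGLN2 (ncbi_110507058) and, of the glucocorticoid-responsive genes, zbtb16a and fkbp5 (ncbi_110528325) passed the filter through hypoxia. The lists were chosen with earlier results of these data known.

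Some pooled calls were not common to the treatments, and the genes here include those chosen for their large acute minus moderate differences. The detoxifying monooxygenase genes cyp1a1 (ncbi_110526570) and cyp1a3 (ncbi_100142632), targets of the aryl hydrocarbon receptor, were called lower, at -0.80 and -0.71. In moderate hypoxia they fell by 1.84 and 1.90, and in acute hypoxia they stood at 0.24 and 0.48, on the other side of control. The cyp1a1 libraries read 360, 355 and 336 scaled FPKM in control, 85.5, 99.0 and 110 in moderate and 401, 455 and 388 in acute hypoxia, so that the pooled mean describes neither treatment. Relb (ncbi_110507414), a subunit of NF-kappa-B, was at 0.45 in moderate and -2.71 in acute hypoxia, and the metalloproteinase gene ADAM12 (ncbi_110517068) at -2.88 and -0.81 with 1 acute library within the controls. The pooled call of Relb was lost without control replicate 1 or 2.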

How the data were processed

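Liver RNA of 9 libraries (3 control, 3 moderate and 3 acute hypoxia, grouped by the treatment labels) was analysed. Per the file headers, the authors deposited 1 FPKM value for each gene in each library. Bowtie2 2.2.8 and TopHat2 2.1.1 are named in the submitters' processing notes, while the build and the counter are not given in the sources used here. Of 3 stacked tables, moderate hypoxia has identical values in the first and the third, so control and moderate hypoxia came from the first and acute hypoxia from the third. Genes averaging 1 FPKM or more (13803 of 42127) were divided by median-of-ratios factors. For the test, limma 3.58.1 (R 4.3.3) modelled log2(scaled FPKM + 0.5) (3 group means, mean trend), with Benjamini-Hochberg adjustment over all genes. The pooled contrast was the mean of moderate and acute hypoxia minus control; acute minus moderate was tested in the same fit. SEs and 95% intervals are limma's moderated ones. The fit was tested on simulated data.

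Lists of 42 pathways and cell types were matched by symbol or product name, without uncharacterized products. Named genes were the 12 highest and 12 lowest by the smaller treatment difference among called genes with all 6 hypoxia libraries on one side of the controls, up to 4 called members per list by p, all called HIF hydroxylases, HIF targets and heme breakdown genes, and the genes with the largest treatment differences among pooled calls (4 each way); part of them are given. The genes cebpb, cdkn1ba, ddx52 and the hydroxylase genes that were not called fall outside that rule and were chosen after their values were seen. Some list members are not reported here. Groups, lists and genes were chosen with earlier results of these data known. Alternatives were pseudocounts, filters, scalings, models, a replicate block, each library left out, and the other quantification (second table). Cyclic loess and factors from all genes above 0 were added after seeing the data.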

Additional observations from a re-analysis of the deposited data

Results flagged for a closer look

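For 59 of the named genes the acute and the moderate treatment differed by limma's test of acute minus moderate hypoxia (adjusted p under 0.05), with acute hypoxia above in 33 and below in 26. Values are log2 differences, acute minus moderate, and no explanation was tested.

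Among the genes of oxygen sensing and heme, the values were 2.34 for fih1, 1.20 and 1.64 for the Egln3 copies, 0.83 for EGLN2, 1.0 for egln1, 1.19 for epo, 1.03 for ankrd37, 0.69 and 0.42 for the jmjd6 copies, 0.76 for vegfaa, 0.34 for BNIP3L, 0.54 for cited2, and 0.70 and 0.92 for the hmox copies. Acute hypoxia was below moderate hypoxia for arnt2 (-0.62) and TFRC (-0.82).

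In sugar and energy metabolism acute hypoxia was above moderate hypoxia for tpi1b (1.25), pgam1b (1.57), pck1, the gate of gluconeogenesis (1.05), ppp1r3cb (1.19) and NDUFS6 (0.56), and below it for G6PC (-0.52) and for sdha, a subunit of succinate dehydrogenase (-0.38).

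The lipid genes given above that passed this test were lower in acute hypoxia: apolipoprotein A-IV by -2.81, pla2g3 by -3.16, PLIN2 by -2.33, idi1 by -1.69, zgc:162608 by -1.19, hsd17b7 by -0.93, SLC25A20 by -0.82, apolipoprotein A-I by -0.69 and stard4 by -0.38. Members not given here went both ways. Higher and lower in acute hypoxia were 11 and 9 apolipoprotein and lipid droplet genes and 9 and 9 of fatty acid and triglyceride synthesis. They were 6 and 2 for fatty acid oxidation and 0 and 14 for cholesterol synthesis. The detoxification genes cyp1a1 (2.08) and cyp1a3 (2.38) were higher in acute hypoxia, as were the bile acid repressor gene Nr0b2 (0.71) and the vitamin D catabolic gene CYP24A1 (0.96).

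Hormone and stress genes went both ways, with fkbp5 at 1.15, Tat at 0.70, cbs at 0.67, Foxo3 at 0.46 and pik3r1 at 0.45, against foxo1a (ncbi_110490984) at -1.05, asns at -0.82, eif2ak3 at -0.65 and atf4 at -0.36.

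Of the remaining genes, ADAM12 (2.06), the DKC1 copies (1.44 and 1.39), tfcp2l1 (0.74) and leap2 (0.50) were higher in acute hypoxia. Relb (-3.16), leap-2b (-1.83), 2 egr1 copies (-0.71 and -1.01), TRAF7 (-0.94), zgc:73324 (-0.86), Per1 (-0.78), RELA (-0.50) and ppan (-0.32) were lower.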

How the results depend on the processing

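Of 109 named genes none changed direction under the 23 alternatives, 94 kept their calls in every alternative other than the fit with 6 hypoxia libraries as 1 group, and 63 kept them in all that tested them. The counts of calls moved more. Against 1178 higher and 1034 lower genes there were 707 higher without the filter, 528 and 431 with a mean of at least 5 FPKM (fewer genes tested), 165 and 148 with the hypoxia libraries as 1 group, and 659 lower on the deposited scale; the cause was not tested. With 1 library left out the ranges were 476 to 1084 higher and 404 to 987 lower, lowest without control replicate 1. Calls with all 6 hypoxia libraries on one side (1341) became 554 at 5 FPKM, 313 with hypoxia as 1 group, and 710 to 1545 with a library left out. Calls that also differed between treatments (999) became 594 without the filter, 511 at 5 FPKM, and 443 to 811 with a library left out. Called list members (349) became 204 at 5 FPKM, 76 with hypoxia as 1 group, and 156 to 341 with a library left out.

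With the replicate number as a block there were 870 higher and 814 lower genes, 1074 of them separated, 763 differing between treatments and 288 list members. Same-numbered libraries did not deviate together (r from -0.133 to 0.073). With so few libraries per group, this check cannot decide whether same-numbered libraries share more than a number. Cyclic loess (1136 and 915) and factors from all genes above 0 (1050 and 1181) were chosen after seeing the data. Depth is unknown, and genes near 0.5 FPKM are limited most.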

Other observations

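Several other gene groups changed little or depended on single libraries. Of 129 ribosomal protein genes 26 were called lower (20.2%, against 7.49% of all genes tested) and none higher. However, 2 of the 26 had every hypoxia library below every control (60.6% over all called genes). The falls were 6 and 4 without control replicate 1 or 2. On the deposited scale 8 were lower, and after cyclic loess 14 were lower and 7 higher. Of 41 complement genes 4 were lower (9.76%, against 7.49%), none of them with every hypoxia library below the controls (60.6% over all called genes). Of the 41, 23 were higher in acute than in moderate hypoxia, and the falls were 1 and 2 without control replicate 1 or 3. Of 44 antioxidant genes 4 were higher and 5 lower (9.09% and 11.4%, against 8.53% and 7.49% of all genes tested). These counts became 0 and 1 without control replicate 1 and 1 and 1 without control replicate 2. Of 35 genes of fatty acid and triglyceride synthesis 5 were lower (14.3%, against 7.49%), and 3 without control replicate 1 or 3. Of 30 heat shock protein genes 2 were higher and 1 lower (6.67% and 3.33%, against 8.53% and 7.49%). No call of a higher member remained without control replicate 1 or 2, acute replicate 1 or 2, or moderate replicate 1 or 2.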
